A study of Homo sapiens with 12 samples.

Results

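The transcripts described here are 10 genes of the hypoxia response, chosen by symbol among the 26485 genes of the count files: the oxygen-regulated transcription factor subunits HIF1A and EPAS1, the prolyl hydroxylases EGLN1 and EGLN3, and the responsive genes VEGFA, CA9, NDRG1, BNIP3, ANKRD37 and DDIT4. They were measured by RNA sequencing in OVCAR8 cells, a line established from a human ovarian cancer, with 3 libraries in each of 4 groups and 12 in all. All groups were grown in RPMI medium with fetal bovine serum and were treated for 7 h. The control group received vehicle, the EC359 group 150 nM EC359, the trametinib group 100 nM trametinib, and the combination group both agents at those doses. EC359 is a small molecule that blocks binding of the cytokine LIF to its receptor LIFR, and trametinib is an inhibitor of the kinase MEK. All values come from a single cell line at a single time, the labels name no low-oxygen treatment, and the oxygen level in the incubator is not given in the sources used here. The labels do not say that the libraries of a group came from separate cultures, so p-values measure only the spread between these libraries, which may be technical.

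As background, HIF1A and EPAS1 (also called HIF2A) are the alpha subunits of the hypoxia-inducible factors, and they pair with the constitutive subunit ARNT. When oxygen is present, EGLN enzymes hydroxylate the alpha subunits, and the VHL ubiquitin ligase then directs their degradation, so the factors are controlled mainly at the protein level and their mRNA does not report their activity. Stabilized factors bind short elements in the DNA of genes for angiogenesis, glycolysis, pH control and mitophagy, and they also raise EGLN1 and EGLN3, which feeds back on the factors. Several of the responsive genes are known targets of other stress pathways too, such as DDIT4 and VEGFA in the integrated stress response, and these inputs cannot be told apart in mRNA counts.

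Since the responsive genes share a known DNA element, the promoters of the members were searched for its core, ACGTG or GCGTG on either strand, where a CACGTG read on both strands (also an E-box) was counted once. RefSeq windows in GRCh38.p14 covering the 250 bases before a transcription start were matched for 8 members, namely HIF1A, EPAS1, EGLN1, EGLN3, CA9, BNIP3, ANKRD37 and DDIT4. At least 1 match was found in 7 of them, and the EGLN3 window had none. The same letters were found at least once in 43.2% of all 35116 RefSeq promoters and in 54.6% of the 15607 promoters of genes tested here, so a single match is common. At least 3 matches were found in 5.86% of all promoters and in 8.55% of those of genes tested, which includes BNIP3 with 5 and DDIT4 with 3. The windows below are those of the 5 members with a match that had more mRNA with EC359 in the tests given further on, and of CA9, which was barely detected. Each is written 5′ to 3′ on the strand of its gene, with 12 flanking bases (fewer where the start is nearer), and capitals mark the matches.
EPAS1, chr2:46297278-46297306, plus strand: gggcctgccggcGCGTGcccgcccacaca
EGLN1, chr1:231422288-231422312, minus strand: gggccgtggtgtACGTGcagagcgc
BNIP3, chr10:131982011-131982078, minus strand: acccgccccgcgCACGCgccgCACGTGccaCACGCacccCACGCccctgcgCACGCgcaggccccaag
ANKRD37, chr4:185396667-185396714, plus strand: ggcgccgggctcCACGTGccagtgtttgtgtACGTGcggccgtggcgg
DDIT4, chr10:72273693-72273887, plus strand: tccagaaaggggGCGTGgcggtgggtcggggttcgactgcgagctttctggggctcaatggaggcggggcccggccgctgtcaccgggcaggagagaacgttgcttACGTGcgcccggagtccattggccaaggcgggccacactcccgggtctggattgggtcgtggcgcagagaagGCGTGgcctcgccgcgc
CA9, chr9:35673898-35673926, plus strand: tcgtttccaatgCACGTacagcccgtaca

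In these windows the matches lay 117 bases before the start in EPAS1, 13 in EGLN1, 18 in CA9, between 143 and 104 in BNIP3, 162 and 143 in ANKRD37, and 219, 125 and 53 in DDIT4. HIF1A, the only tested member whose mRNA was lower with EC359 and in the combination, had a match 204 bases before the start in 1 of its RefSeq windows and none in the other. A match describes letters in a window and not a bound site, and the count data hold no measurement of factor binding. Distances are from the RefSeq starts, which lie 4 to 10 bases from those of the hg38 annotation used for counting in EPAS1, EGLN3, CA9 and DDIT4, but 90 bases in BNIP3, 155 in ANKRD37, 2757 in EGLN1, and 112 and 2311 in HIF1A. In that annotation the EGLN1 window and the HIF1A window without a match lie inside their genes. The ANKRD37, BNIP3 and CA9 windows printed above span the starts of their genes, at 185396686, 131982013 and 35673918.

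Depth and identity were checked first. The libraries held between 24790392 and 32467283 counted reads, and values are given as CPM, which are counts brought to a common library size with TMM factors. A gene counted at 0 could still have up to 3 counts, or 0.0883 to 0.127 CPM depending on the library (counting error only). Of the 10 members, 9 passed the filter on low counts, each with at least 38 counts in every library, and CA9 did not. Among markers fixed for ovarian cancer epithelium, KRT7, KRT8, KRT18 and PAX8 had 73.7 CPM or more in every library, EPCAM had 9.30 to 13.0 and WT1 2.29 to 4.68 CPM, and CDH1 stayed at or under 0.564 CPM, while KRT19 and MUC16 were at 0 in 10 of the 12 libraries. Of 8 markers of other cell types, PTPRC and CD3E were at 0 throughout, COL1A2 was at 0 in 10 libraries, ACTA2, VWF and PECAM1 did not exceed 1.61 CPM, and CD68 had 47.9 to 60.6 CPM. The sum of these 8, mostly COL1A1, lay at 466 to 493 CPM in control, 279 to 294 with EC359, 564 to 577 with trametinib and 365 to 389 in the combination. COL1A1 thus moved with the treatments, and its part in the values below was not tested. Control replicate 2 stood apart from the other control libraries, with a chi-square per degree of freedom between gene counts of 6.56 and 7.36 against 2.78 between the other two, where pairs in the other groups had 2.67 to 4.79. Without it the counts of members called against control were the same and the largest move of a member was -0.05 on the log2 scale (VEGFA), while the interaction passed in 3 members in place of 5.

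EC359 raised 8 of the 9 tested members and lowered the other, HIF1A. The 6 largest increases, all above 2-fold, were in NDRG1, DDIT4, VEGFA, ANKRD37, EPAS1 and BNIP3. Trametinib alone changed no member 2-fold, but ANKRD37 was higher (log2 fold change 0.80), and NDRG1 (-0.58), HIF1A (-0.14) and BNIP3 (-0.12) were lower. In the combination 7 members were higher than in control, but NDRG1, DDIT4 and BNIP3 were lower than with EC359 alone, while VEGFA did not differ from its EC359 level beyond the spread. The members are described below by role, with tests from edgeR's quasi-likelihood fit over all 12 libraries and Benjamini-Hochberg adjustment over 14865 genes. The comparisons with control share the same 3 control libraries.

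**Figure D1:**
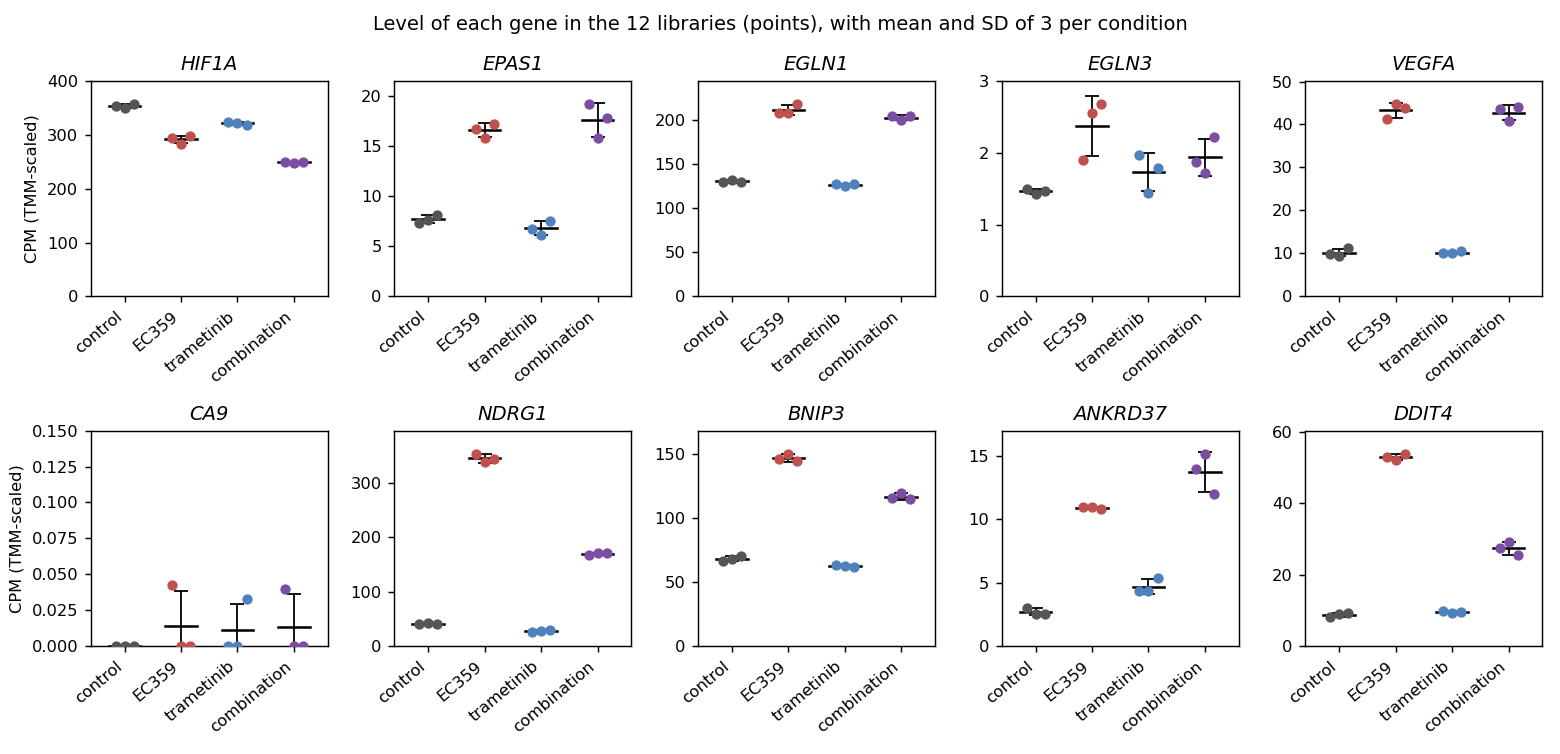
Level of each of the 10 members in every library, in CPM on a linear axis from 0 with its own range in each panel, for the control, EC359, trametinib and combination groups (points are libraries, bars the mean and SD of 3). The EC359 and combination libraries lie above the control libraries in every panel except HIF1A, where they lie below, and CA9, which is at or near 0 throughout.

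The factor subunits moved in opposite directions with EC359 and in the combination. HIF1A, on chromosome 14 from 61695401 to 61748259 in hg38, had 354.2, 350.2 and 357.6 CPM in the 3 control libraries and 294, 284 and 298 CPM with EC359. With trametinib it had 325, 321 and 319 CPM, and in the combination 249, 249 and 250.4 CPM. The 4 groups did not overlap, with control highest and the combination lowest. The log2 fold change against control was -0.28 with EC359 (SE 0.02, adjusted p = 2.34e-15), -0.14 with trametinib (SE 0.02, adjusted p = 3.98e-06) and -0.50 in the combination (SE 0.02, adjusted p = 3.38e-26). The combination was also below EC359 alone, with a log2 difference of -0.23 (adjusted p = 1.45e-11), and below trametinib alone, with -0.37 (adjusted p = 5.93e-20). These are small changes, since the combination kept a 0.705-fold level. They passed with low p-values because HIF1A varied little between libraries of a group, with a log2 SD of 0.02 within groups. Their size was ordinary among all genes tested. It equalled or exceeded that of 52.8% of genes with EC359, 57.7% with trametinib and 65% in the combination. The HIF1A counts were not whole in 11 of 12 libraries, so some of its reads had several placements, and the antisense genes HIF1A-AS1 and HIF1A-AS2 cover exon bases on the other strand. Counting was set to use strand, and HIF1A-AS2 had only 0.370 CPM in control and 0.851 CPM in the combination.

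EPAS1, on chromosome 2 from 46297402 to 46386703, was a low transcript in control, at 7.32, 7.64 and 8.12 CPM, and rose to 16.7, 15.8 and 17.3 CPM with EC359. It had 6.71, 6.15 and 7.56 CPM with trametinib and 19.2, 15.8 and 17.8 CPM in the combination. The EC359 and combination libraries overlapped with each other and lay above all control and trametinib libraries. The log2 fold change was 1.11 with EC359 (SE 0.09, adjusted p = 3.8e-17) and 1.19 in the combination (SE 0.08, adjusted p = 1.11e-18). For trametinib it was -0.18, with a 95% interval from -0.36 to 0.01 (adjusted p = 0.155), and between the combination and EC359 it was 0.08, with an interval from -0.08 to 0.24 (adjusted p = 0.418). Per length of annotated exons, HIF1A had 54.2 ± 2.59 times the EPAS1 level in control (SD, n = 3), 20.7 ± 0.410 with EC359, 56.0 ± 5.95 with trametinib and 16.8 ± 1.64 in the combination. HIF1A thus remained the more abundant mRNA in every library.

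Of the hydroxylases among the members, EGLN1 was the more abundant and had the tighter change. EGLN1, on chromosome 1 from 231363751 to 231425044, encodes the main oxygen-sensing hydroxylase and had 129.6, 131 and 129 CPM in control. It rose to 208, 208 and 218 CPM with EC359 and to 204, 199 and 204 CPM in the combination, against 127, 125 and 127 CPM with trametinib. The EC359 and combination libraries all lay above those of the other groups, by log2 fold changes against control of 0.70 (SE 0.03, adjusted p = 4.36e-30) and 0.64 (SE 0.03, adjusted p = 2.14e-28). The trametinib value was -0.04, with an interval from -0.10 to 0.02 (adjusted p = 0.327). The combination libraries lay below the EC359 libraries without overlap, yet the log2 difference of -0.06 did not pass (adjusted p = 0.0524). It passed with other scalings or tests, at adjusted p = 0.041 with the size factors of DESeq2, 0.0372 with total counts, 0.0483 with DESeq2 itself and 0.042 without the filter on low counts. It also passed without EC359 replicate 1 (0.029), EC359 replicate 2 (0.0361) or combination replicate 1 (0.0491). It did not pass without any of the other libraries of these groups. Over all 6 fits with 1 library fewer, the log2 difference lay between -0.075 and -0.040, with an adjusted p up to 0.285. Nor did it pass with a block for the replicate number, a stricter filter or the compared groups alone.

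EGLN3, a hypoxia-inducible hydroxylase on chromosome 14 from 33924215 to 33951078, was the lowest tested member, with 38 to 76 counts per library. In control it had 1.499, 1.43 and 1.47 CPM, and with EC359 1.90, 2.55 and 2.68 CPM. Trametinib gave 1.97, 1.44 and 1.78 CPM, and the combination 1.88, 1.71 and 2.22 CPM. The EC359 libraries lay above the controls, with a log2 fold change of 0.70 (SE 0.20, adjusted p = 0.00227), the same size as for EGLN1 but with a wider interval from 0.30 to 1.11. In the combination its log2 fold change of 0.40 did not pass (adjusted p = 0.0792), although the libraries lay above the controls, and its interval from -0.01 to 0.81 included the EC359 value. The combination and EC359 were not distinguishable at this depth, with a log2 difference of -0.30 and an interval from -0.70 to 0.10.

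VEGFA, on chromosome 6 from 43770209 to 43786486, encodes the main growth factor of new blood vessels, and its mRNA was high in both groups that received EC359. Its libraries had 9.93, 9.45 and 11.2 CPM in control and 41.3, 44.7 and 43.9 CPM with EC359. They had 10.0, 10.1 and 10.4 CPM with trametinib and 43.5, 40.7 and 44.0 CPM in the combination. The EC359 and combination libraries overlapped each other, and so did those of control and trametinib, with a wide gap between these pairs of groups. VEGFA rose by a log2 fold change of 2.09 with EC359 (SE 0.06, adjusted p = 5.3e-36) and 2.07 in the combination (SE 0.06, adjusted p = 6.41e-36). The difference between the combination and EC359 had an interval from -0.13 to 0.09 on the log2 scale (adjusted p = 0.78), and that between trametinib and control an interval from -0.15 to 0.14 (adjusted p = 0.988).

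CA9, on chromosome 9 from 35673918 to 35681157, encodes a membrane carbonic anhydrase that serves as a common marker of hypoxic cells. It had 1 count each in EC359 replicate 1, trametinib replicate 3 and combination replicate 1, and 0 in the other 9 libraries, including all controls. With 3 counts in all 12 libraries no difference was detectable at this depth, and no fold change is given.

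NDRG1, a stress-responsive gene with roles in differentiation and growth arrest, had the largest change of the members. It lies on chromosome 8 from 133237171 to 133297304 and had 40.9, 42.0 and 40.03 CPM in control against 353, 339 and 343 CPM with EC359. The trametinib libraries had 25.0, 28.3 and 29.2 CPM, and the combination libraries 168, 170.1 and 171 CPM. All 4 groups stood apart, in the order trametinib, control, combination and EC359. Its log2 fold change was 3.07 with EC359 (SE 0.03, adjusted p = 9.57e-57), -0.58 with trametinib (SE 0.04, adjusted p = 1.36e-16) and 2.05 in the combination (SE 0.03, adjusted p = 2.54e-47). The combination was thus below EC359 alone by a log2 difference of -1.02 (SE 0.03, adjusted p = 1.19e-35), a 0.492-fold level.

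DDIT4, also called REDD1, inhibits mTORC1 under stress and lies on chromosome 10 from 72273919 to 72276039. Its control libraries had 8.10, 8.97 and 9.12 CPM, and its EC359 libraries 52.8, 52.1 and 53.8 CPM. In the combination the values were intermediate, at 27.4, 29.1 and 25.5 CPM, and with trametinib they were 9.92, 9.31 and 9.57 CPM. DDIT4 rose by a log2 fold change of 2.59 with EC359 (SE 0.06, adjusted p = 1.85e-40) and 1.64 in the combination (SE 0.06, adjusted p = 5.72e-30). The combination lay below EC359 by -0.95 (SE 0.05, adjusted p = 5.7e-22). The trametinib libraries all lay above the controls, but the log2 fold change of 0.13 did not pass (adjusted p = 0.177, interval from -0.01 to 0.28). The trametinib difference in DDIT4 thus had opposite signs without and with EC359, and its test is given with the interaction.

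BNIP3, a mitochondrial outer membrane receptor for mitophagy whose promoter window held the most matches, lies on chromosome 10 from 131967683 to 131982013. It had 66.6, 68.4 and 70.5 CPM in control and 147, 151 and 145 CPM with EC359. With trametinib it had 63.6, 63.0 and 62.1 CPM, and in the combination 116, 119.9 and 115 CPM. The groups did not overlap, in the same order as for NDRG1. Its log2 fold change was 1.10 with EC359 (SE 0.03, adjusted p = 1.82e-36), -0.12 with trametinib (SE 0.03, adjusted p = 0.00376) and 0.77 in the combination (SE 0.03, adjusted p = 9.48e-29), and the combination lay -0.33 below EC359 (adjusted p = 5.56e-14). BNIP3 counts were not whole in 6 of 12 libraries, so a part of its reads had more than 1 placement.

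ANKRD37, an ankyrin repeat gene known for its induction by hypoxia, was the member that rose with each agent. It lies on chromosome 4 from 185396686 to 185400236 and had 3.03, 2.50 and 2.56 CPM in control. The values were 10.9, 10.9 and 10.8 CPM with EC359, 4.34, 4.33 and 5.39 CPM with trametinib and 13.9, 15.2 and 12.02 CPM in the combination. All 4 groups stood apart, with the combination highest. The log2 fold change was 2.02 with EC359 (SE 0.12, adjusted p = 2.96e-22), 0.80 with trametinib (SE 0.12, adjusted p = 3.99e-07) and 2.35 in the combination (SE 0.12, adjusted p = 1.44e-25). The combination exceeded EC359 by 0.33 (SE 0.10, adjusted p = 0.00596), but without combination replicate 2 this fell to 0.25 and did not pass (adjusted p = 0.0764). ANKRD37 shares exon bases on the other strand with UFSP2, which moved the other way with EC359, from 29.6 to 26.1 CPM (log2 fold change -0.18, adjusted p = 0.00479), and had 30.6 CPM with trametinib (0.05, adjusted p = 0.549).

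**Figure D2:**
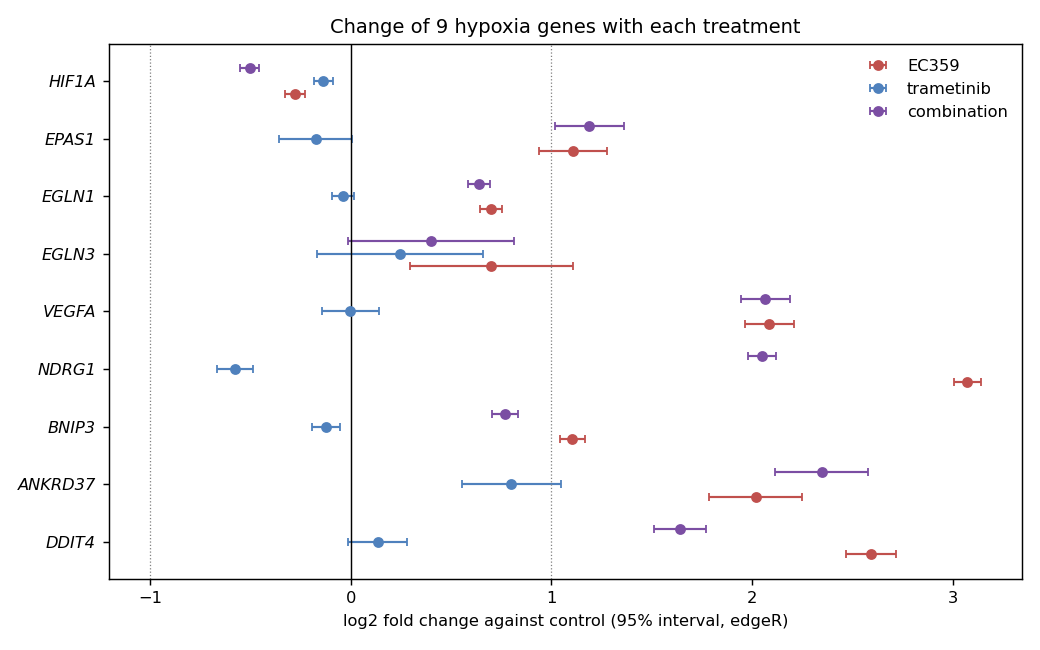
Log2 fold change of the 9 tested members against control for EC359, trametinib and the combination, with 95% intervals from edgeR's quasi-likelihood fit. EC359 and combination values lie above 0 except for HIF1A, and trametinib values lie between -0.58 and 0.80.

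Counted over the members, EC359 raised 8 of 9 at an adjusted p-value under 0.05, where 30.8% of all genes tested were higher, and lowered 1, where 30.3% were lower. Because so many genes changed, the size of the changes separates the members better than the calls, and 6 of 9 rose by at least 2-fold, against 4.19% of all genes. The median log2 fold change of the tested members was 1.11, against -0.01 over all genes. The members were chosen with earlier results of these data known, so these shares and medians are descriptions and not independent support. With trametinib 1 member was higher (13% of all genes), 3 were lower (15.2%) and none changed 2-fold (0.478% of all genes rose and 0.955% fell by that much), with a median of -0.04. In the combination 7 were higher (35%) and 1 was lower (34.7%), and 5 rose at least 2-fold (7.27%), with a median of 1.19. With total counts in place of TMM the median of all genes moved to -0.15 for EC359, -0.14 for the combination and -0.16 for the combination against trametinib. Against control HIF1A was then at -0.41 with EC359 and -0.64 in the combination, still below those medians, and every call of a member against control was kept, while EPAS1 and BNIP3 were both at 0.97 with EC359 and so just under 2-fold.

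Adding trametinib to EC359 lowered 4 members (25.2% of all genes were lower) and raised 1 (24.1%). NDRG1, DDIT4, BNIP3 and HIF1A were those that fell and ANKRD37 the one that rose, and NDRG1 alone changed 2-fold (1.55% of all genes were lower by that much). Adding EC359 to trametinib raised 7 members (35.3%) and lowered HIF1A (32.9%), and 5 rose at least 2-fold (6.12%). Those 5 were NDRG1, with a log2 fold change of 2.63, VEGFA with 2.07, ANKRD37 with 1.55, DDIT4 with 1.51 and EPAS1 with 1.36. EGLN3 did not pass in either of these comparisons, at -0.30 (adjusted p = 0.221) and 0.15 (adjusted p = 0.51).

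The interaction term asked whether the combination equalled the added log2 fold changes of its agents. In 5 members the combination lay below that sum (15.9% of all genes had a negative interaction), and in none above it (14.4% positive). The shortfall was largest in DDIT4, for which the sum was 2.73 and the combination 1.64, an interaction of -1.09 (SE 0.09, adjusted p = 2.13e-14), the only one beyond 2-fold (0.686% of all genes). EC359 thus raised DDIT4 by 2.59 without trametinib and by 1.51 with it. For NDRG1 the interaction was -0.45 (SE 0.05, adjusted p = 1.06e-09), as the EC359 effect went from 3.07 to 2.63. For BNIP3 it was -0.21 (SE 0.05, adjusted p = 0.000265), and for ANKRD37 -0.47 (SE 0.16, adjusted p = 0.0197). HIF1A was at -0.09 (SE 0.03, adjusted p = 0.0422), so its decrease in the combination was slightly larger than the sum of -0.42.

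The ANKRD37 and HIF1A interactions depended on single libraries. The ANKRD37 interaction did not pass without control replicate 2 (-0.42, adjusted p = 0.0587), trametinib replicate 3 (-0.36, adjusted p = 0.0991) or combination replicate 3 (-0.38, adjusted p = 0.0783), and that of HIF1A passed only without control replicate 3, EC359 replicate 2 or trametinib replicate 3, with an adjusted p up to 0.137 in the other 9 fits. EPAS1 had a positive interaction of 0.26 that did not pass (adjusted p = 0.103) and passed without trametinib replicate 3 (0.34, adjusted p = 0.0414) or combination replicate 2 (0.33, adjusted p = 0.042). VEGFA and EGLN1 were close to the sum, with intervals of the interaction from -0.20 to 0.16 and from -0.10 to 0.06. For EGLN3 the interval from -1.12 to 0.03 was too wide to place it.

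**Figure D3:**
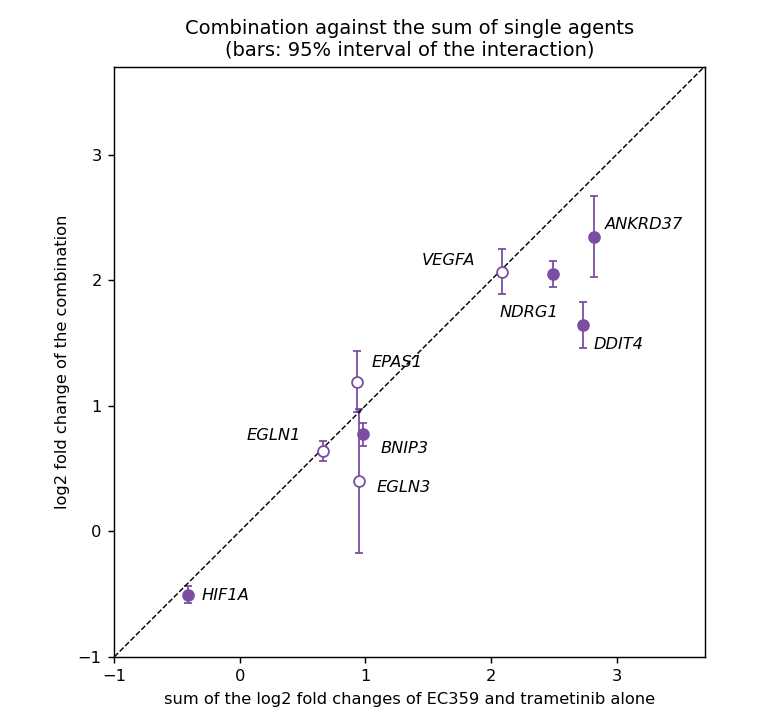
Log2 fold change of the combination against control (vertical axis) and the sum of the log2 fold changes of EC359 and trametinib alone (horizontal axis) for the 9 tested members, with 95% intervals of the interaction, filled points for members that passed the interaction test and the diagonal for equality. DDIT4, NDRG1, BNIP3 and ANKRD37 lie below the diagonal, while VEGFA and EGLN1 lie on it within their intervals.

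The treatments also changed which member was most abundant. On a scale per length (RPKM, here CPM divided by the summed exon length in kilobases), the order of levels in control was HIF1A at 80.5, BNIP3 at 41.9, EGLN1 at 18.3, NDRG1 at 11.8, DDIT4 at 4.98, ANKRD37 at 2.89, VEGFA at 2.70, EPAS1 at 1.49 and EGLN3 at 0.539 RPKM. Neighbours in this order did not overlap between libraries except ANKRD37 and VEGFA. With EC359 the order was led by NDRG1 at 99.2 and BNIP3 at 90.2 RPKM, ahead of HIF1A at 66.4 RPKM, while DDIT4 at 30.2 RPKM overlapped EGLN1 at 29.8 and ANKRD37 at 11.7 overlapped VEGFA at 11.5. With trametinib the order was that of control, and DDIT4 at 5.48 RPKM overlapped ANKRD37 at 5.02. In the combination BNIP3 led at 71.6 RPKM, followed by HIF1A at 56.8, NDRG1 at 48.8 and EGLN1 at 28.5, and DDIT4 at 15.6 overlapped ANKRD37 at 14.7. EPAS1 and EGLN3 were the lowest tested members in all groups, at 1.32 to 3.41 and 0.539 to 0.873 RPKM.

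The genes whose pattern over the 12 libraries was most like that of HIF1A, by the root mean square difference of log2 CPM after centring each gene and among 9404 genes of at least 10 CPM, were MRPL30 (0.0235), ABCE1 (0.0288) and PDIA4 (0.0340). For EPAS1 they were DCP1A (0.0899), PI4K2A (0.0960) and ZFAND5 (0.0985). Among the members themselves, the closest pairs were EGLN1 with BNIP3 (0.188) and EPAS1 with BNIP3 (0.201). These likenesses are descriptions over libraries that share the treatments.

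The rest of the pathway was described with 3 further lists of 80 genes, of which 76 were tested. The lists were written from general knowledge but with earlier results of these data known, so their shares are descriptions and not independent support. With EC359, 59 (77.6%) were higher, against 30.8% of all genes, and 4 (5.26%) lower, against 30.3%. At least 2-fold increases were found in 28 of them, against 4.19% of all genes, and their median log2 fold change was 0.57. In the combination 55 (72.4%) were higher and 8 (10.5%) lower, against 35% and 34.7% of all genes, with a median of 0.38. With trametinib 19 (25%) were higher and 26 (34.2%) lower, against 13% and 15.2%, with a median of -0.04. Adding trametinib to EC359 lowered 39 (51.3%, against 25.2% of all genes) and raised 14 (18.4%, against 24.1%), and 24 had a negative (31.6%, against 15.9%) and 12 a positive interaction (15.8%, against 14.4%). With total counts in place of TMM, 8 were lower with EC359, 14 in the combination and 14 when EC359 was added to trametinib, where TMM gave 7.

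Of 42 tested other targets, 34 (80.95%) were higher with EC359 and 1 (2.38%) was lower, against 30.8% and 30.3% of all genes, and 21 rose at least 2-fold (4.19% of all genes), with a median of 0.98. HMOX1, which degrades heme and is also known as a target of the oxidative stress factor NRF2, rose from 19.6 to 892 CPM (log2 fold change 5.50), and MAFF, a small MAF transcription factor, from 66.8 to 461 CPM (2.79). IGFBP3, a binding protein of insulin-like growth factors, fell from 361 to 266 CPM (-0.44). In the combination 30 (71.4%) were higher and 4 (9.52%) lower (median 0.66), against 35% and 34.7% of all genes, with HMOX1 at 5.41 and the vasodilator peptide gene ADM at 2.34, against -0.38 for the collagen cross-linking enzyme LOXL2. With trametinib 12 were higher and 12 lower (28.6% each, against 13% and 15.2% of all genes), with CITED2, a competitor of the factors for their coactivators, at 0.76 and HMOX1 at 0.61, and with MAFF at -1.95 and the secreted glycoprotein STC2 at -1.25.

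Of 22 tested glycolysis targets, 20 (90.9%) were higher with EC359 and none lower, against 30.8% and 30.3% of all genes, and 6 rose at least 2-fold (4.19% of all genes), with a median of 0.41. The glucose transporter SLC2A3 rose from 23.1 to 185 CPM (log2 fold change 3.01) and the hexokinase HK2 from 12.9 to 70.3 CPM (2.44). In the combination 19 (86.4%, against 35% of all genes) were higher and none lower (median 0.30), with SLC2A3 at 2.76 and HK2 at 1.83. With trametinib 12 (54.5%, against 15.2% of all genes) were lower and 3 (13.6%, against 13%) higher (median -0.07), with HK2 at -0.59, SLC2A3 at -0.47, and the glycogen enzymes GBE1 at 0.22 and GYS1 at 0.21. SLC2A3 and HK2 therefore had the same signs as NDRG1 and BNIP3 in each comparison with control.

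Of the 12 tested genes of oxygen sensing and the factor complex, 5 (41.7%) were higher and 3 (25%) lower with EC359, shares near those of all genes (30.8% and 30.3%), with a median of 0.13. The coactivator genes CREBBP and EP300 rose, by log2 fold changes of 1.08 (52.9 to 112 CPM) and 0.57 (88.5 to 131 CPM), and in the combination by 1.94 and 0.79. CUL2 and TCEB1, which encode the cullin and the elongin C of the VHL ligase, had log2 fold changes of -0.25 and -0.17 with EC359. VHL itself rose with EC359, from 68.8 to 79.5 CPM (0.21, adjusted p = 1.32e-06), but with total counts in place of TMM its value of 0.07 did not pass (adjusted p = 0.0684). The other subunit genes TCEB2 and RBX1 were at -0.0033 (adjusted p = 0.934) and -0.10 (adjusted p = 0.0551). These also depended on the scaling, since with total counts both were lower, at -0.14 (adjusted p = 0.000102) and -0.23 (adjusted p = 1.22e-05). In the combination 6 (50%) were higher and 4 (33.3%) lower (median 0.07), against 35% and 34.7% of all genes, with VHL at -0.53 and CUL2 at -0.51. With trametinib 4 (33.3%) were higher and 2 (16.7%) lower (median 0.01), against 13% and 15.2%, with ARNT at 0.20, the transmembrane prolyl hydroxylase P4HTM at 0.17, VHL at -0.20 and TCEB1 at -0.12.

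**Figure D4:**
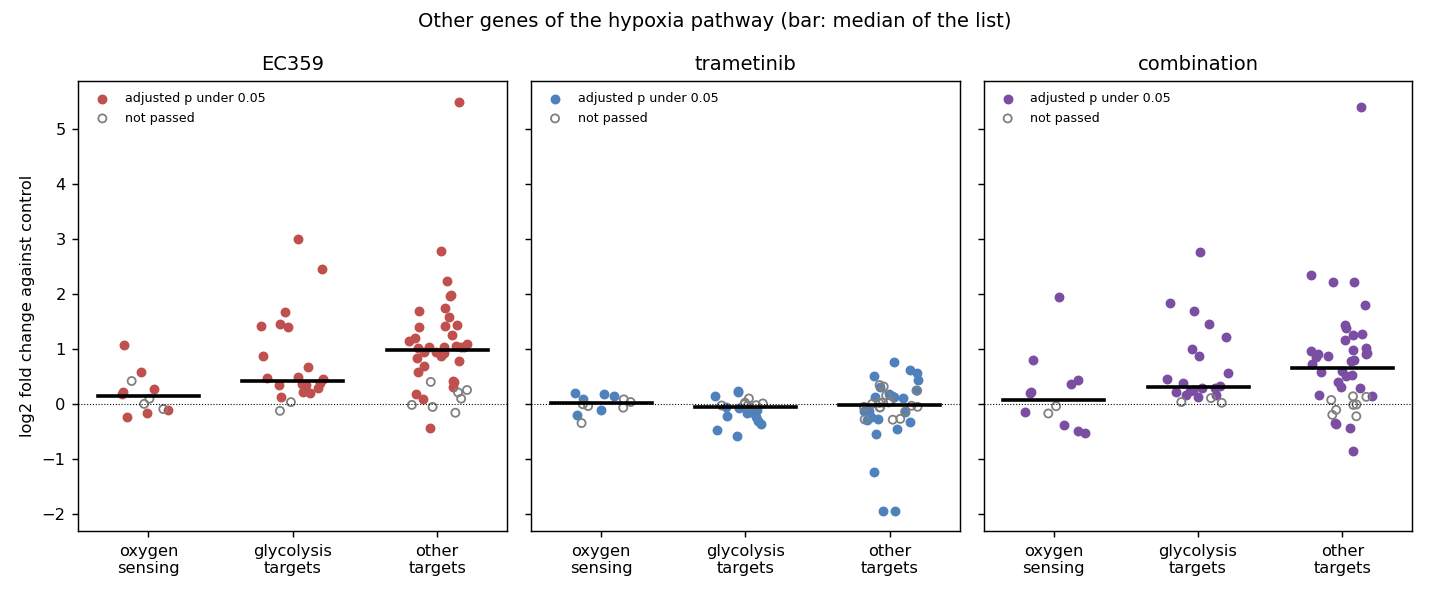
Log2 fold changes against control of the tested genes of the 3 further lists, in a panel each for EC359, trametinib and the combination, with a point for each gene (filled where the adjusted p-value was under 0.05) and a bar at each median. Medians lie above 0 for EC359 and the combination in each list, at 0.13 and 0.07 for oxygen sensing, 0.41 and 0.30 for glycolysis targets, and 0.98 and 0.66 for other targets.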

How the data were processed

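RNA of OVCAR8 cells was sequenced in 12 libraries, 3 per group, as stranded polyadenylated RNA read from both ends for 100 bp. The submitters' processing notes name bcl2fastq, HISAT2 and featureCounts. Per the file headers, the authors counted with featureCounts 1.5.0-p1 in paired and reverse-stranded mode, required a mapping quality of at least 2, added up the exons of each gene of an annotation of hg38, and split a read placed several times into fractions. The deposited values are therefore estimated counts (expected counts), 1 library per file, without normalization. In each library 12.4% to 15.1% of genes had values that were not whole, and all were rounded.

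Analyses used R 4.3.3. Low counts were filtered in edgeR 4.0.16 by filterByExpr (count 10, total 15), leaving 14865 of 26485 genes, and 6337 had no count. TMM factors lay between 0.947 and 1.06. The 4 groups were fitted together by robust quasi-likelihood (8 residual degrees of freedom), with Benjamini-Hochberg adjustment over all genes tested and a threshold of 0.05 on the adjusted p-value. SEs were the log2 fold change divided by the square root of its F statistic. Tests and 95% intervals used the total degrees of freedom of the fit. These exceed the residual ones because the fit shares information on spread between genes. The biological coefficient of variation was 3.95%. CPM and RPKM were computed here. Promoter windows came from RefSeq (GRCh38.p14).

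All members were named. Of the further lists, at most 2 genes per list and direction were named in each comparison with control, those with the largest changes among genes past the threshold, at 10 CPM or more in the higher group and without overlap between the libraries of both groups. A gene that this rule selects is not reported here, and VHL, TCEB2 and RBX1 with EC359 were added after their values were seen. The members and lists were chosen with earlier results of these data known. As alternatives, the fit used DESeq2 1.42.0 or only its size factors, total counts, no filter, a filter of 10 counts in each library, the compared groups alone, a block for the replicate number, 1 library fewer, or a minimum of 2-fold. The tests were tried on simulated counts with the same spread for all genes. Far fewer genes were changed there than were called here, so the simulation does not check the scaling used for these data.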

Additional observations from a re-analysis of the deposited data

Results flagged for a closer look

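In 5 members the effect of EC359 differed between cells with and without trametinib, by edgeR's test of the interaction term after Benjamini-Hochberg adjustment. The interaction was -1.09 for DDIT4 (adjusted p = 2.13e-14), -0.47 for ANKRD37 (adjusted p = 0.0197), -0.45 for NDRG1 (adjusted p = 1.06e-09), -0.21 for BNIP3 (adjusted p = 0.000265) and -0.088 for HIF1A (adjusted p = 0.0422), all on the log2 scale. In DDIT4, ANKRD37, NDRG1 and BNIP3 the log2 increase with EC359 was smaller in the presence of trametinib, and in HIF1A the log2 decrease was larger. In CPM the ANKRD37 increase was not smaller. Its mean went from 2.70 to 10.9 CPM without trametinib and from 4.68 to 13.7 CPM with it. The ANKRD37 and HIF1A interactions did not pass without control replicate 2, which stood apart from the other controls (-0.42, adjusted p = 0.0587, and -0.0807, adjusted p = 0.0986, in edgeR).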

How the results depend on the processing

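EC359, combination and trametinib calls of members against control kept their direction and side of the threshold except where named here. With a minimum of 2-fold, 1038 genes were called for EC359, 213 for trametinib, 1953 for the combination, 482 for the combination against EC359, 1723 against trametinib and 233 for the interaction, in place of 9077, 4197, 10353, 7319, 10136 and 4506, and the members called lower became 0 for EC359, trametinib and the combination against control and against trametinib, and 1 for the combination against EC359 and the interaction, while those higher became 0 for trametinib and for the combination against EC359. Leaving out single libraries, the combination against EC359 had 0 to 1 members higher (0 without combination replicate 2) and 1 to 2 changed 2-fold (2 without that library), and the interaction had 0 to 1 higher (EPAS1, without trametinib replicate 3 or combination replicate 2) and 3 to 5 lower (3 without control replicate 2 or combination replicate 3). Signs changed only in values that passed no test: VEGFA with trametinib (0.00207 with the size factors of DESeq2, 0.0226 with total counts, 0.00203 with DESeq2, and -0.0559 to 0.0741 leaving out libraries), VEGFA in the combination against EC359 (-0.0559 to 0.0120), EGLN3 in the combination against trametinib (-0.00852 with total counts), and the interactions of EGLN1 (-0.0331 to 0.00188) and VEGFA (-0.0952 to 0.0348). Total counts lowered the share of higher calls among all genes called from 50.4% to 31.8% for EC359, from 50.2% to 36% for the combination and from 51.7% to 33.1% for the combination against trametinib, and raised it from 46.2% to 58.4% for trametinib. Depth limits EGLN3 and CA9. Whether the labels' replicate numbers mark a pairing cannot be settled by correlations of values centred within groups of 3 libraries. Same-numbered libraries had correlations of -0.21 to 0.25 over 18 pairs, 3 of them over 0.1, against -0.26 to 0.23 for other pairs. Of the 12 libraries, 6 correlated best with their own number. With the number as a block, 9024 genes were called for EC359, 4136 for trametinib, 10304 for the combination and 4431 for the interaction, and the counts of members called were the same. The cause of these changes was not tested.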

Other observations

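Some genes of the other targets list, chosen after their values were seen, did not move with the members. With EC359, the lipid droplet gene HILPDA had 5.50 ± 0.326 CPM against 5.57 ± 0.696 CPM in control (SD, n = 3 each). Its log2 fold change was -0.02 (adjusted p = 0.893 in edgeR). FAM162A, at 0.09 (adjusted p = 0.139), and the carbonic anhydrase gene CA12, at 0.20 (SE 0.21, adjusted p = 0.426), did not pass either. CA12 had only 1.82 CPM in control and 2.09 CPM with EC359, so a small rise could not be told from none. In contrast, the BNIP3 paralog BNIP3L rose by 1.398 and the histone demethylase gene KDM3A by 1.95. ANGPTL4, an inhibitor of lipoprotein lipase, had a control level of 3.19 CPM, which compares with 10.6 CPM for EC359, 0.830 for trametinib and 2.78 for the combination, log2 fold changes of 1.73, -1.95 and -0.20, of which the last did not pass (adjusted p = 0.24).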
